A study of Mus musculus with 54 samples.

Results

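RNA from mouse spleen collected 6, 7 and 8 h after irradiation was compared with RNA from spleen collected 3, 4 and 5 h after it. Each side held 3 libraries, so 6 of the 54 libraries of the series entered the comparison. Of the 13611 genes in the deposited table, the 11754 with a mean of at least 1 FPKM over these 6 libraries were tested. FPKM is a level corrected for transcript length and for the number of fragments sequenced.

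The spleens came from C57B6 mice that, per the labels, received 10 Gy of gamma radiation, which holds for the 6-8 h libraries and for the 3-5 h libraries alike. The spleen library at 0 h was not treated, and the libraries at 1, 2 and 24 h serve to place the levels; those at 1 and 2 h also enter the estimate of the spread. The sources used here do not give the animals' age or sex. There is 1 library per time point, so neighbouring hours stand in for replicates, and no label tells whether each hour was a separate animal. The p-values measure the spread between neighbouring hours within windows, pooled over 4 organs, and this spread may be technical. The fit held 40 libraries, of which those at 0 and 24 h, with 1 per organ at each time, add nothing to the spread. No untreated spleen was matched to the later hours, so time after irradiation, time of day and handling cannot be told apart.

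The spleen filters blood through a red pulp rich in macrophages, and its white pulp holds B cells in follicles and T cells in sheaths around arterioles. Resting lymphocytes are among the most radiation-sensitive cells of the body. DNA breaks activate the transcription factor p53, which raises genes for cell cycle arrest, for apoptosis and for its own feedback inhibition, and small lymphocytes readily die by this route. Dying cells are taken up by macrophages, and neutrophils, short-lived phagocytes drawn in through chemokines and interleukin-1, are common early arrivals in injured tissue.

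The 6 libraries differed in ways that touch the comparison. The 6 h library held transcripts of the exocrine pancreas, which lies beside the spleen: 23 acinar genes summed to 114100 FPKM there, or 20.13% of its total FPKM. The same sum was 326.5 FPKM at 7 h and 42.61 FPKM at 8 h, against 11.75 to 17.5 FPKM at 3-5 h, where 14 of the 23 genes were at 0 in all 3 libraries. Each gene was therefore also tested at 7 and 8 h alone against 3, 4 and 5 h. Total FPKM was 566863 at 6 h and 430170 to 459409 at 7 and 8 h, against 395216 to 442532 at 3-5 h, while the median tested gene stood at 11.04 to 11.53 FPKM in all 6. No fragment counts were at hand, so the depth behind single values is unknown. The spleen's own markers were present in every library: summed B cell markers reached 716 FPKM or more, T cell markers 525.3 FPKM or more, and macrophage markers 4070 FPKM or more. The 5 h library correlated with 7 h at r = 0.9598 and with 3 h at r = 0.954 (Pearson, log2 values across genes, which are not independent replicates). In bulk RNA, fewer cells of a type and less RNA per cell cannot be told apart.

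Between 6-8 h and 3-5 h, 1669 genes changed (14.2% of those tested, limma adjusted p below 0.05). All log2 changes are differences of means of log2(FPKM + 1), 6-8 h minus 3-5 h, which understate the change of genes with low levels. Higher at 6-8 h were 1039 genes (8.84%) and lower were 630 (5.36%). At 7-8 h alone 1196 genes were called (10.2%), 726 higher (6.18%) and 470 lower (4%). In the same direction in both tests were 675 higher and 420 lower genes, and no called gene had the opposite sign at 7-8 h. Changes were larger upward than downward: 236 of the higher genes passed 2-fold and 65 passed 4-fold, whereas 80 of the lower genes passed 2-fold and only 1 passed 4-fold. The 65 include pancreatic genes of the 6 h library. Of the 65, 42 were on no pancreatic list and were also called higher at 7-8 h. All 6-8 h libraries lay above all 3-5 h libraries for 2236 genes (19%) and below them for 1883 (16%). The groups were thus separate for 955 of the 1039 higher and 598 of the 630 lower genes. The count rested on the spread shared with the other organs and on single libraries. It was 564 without 3 h, 707 without 4 h, 2541 without 5 h, 1063 without 7 h and 862 without 8 h, and 729 when the spleen libraries alone set the spread. The split between directions depended on scaling: 62.25% of calls were higher with the values as deposited, 46.43% after quantile normalization and 38.80% after equalizing the summed FPKM without pancreatic genes. That last scaling moved the median of all genes from 0.03 to -0.08 on the log2 scale.

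The other time points place these changes in the course after irradiation. The genes were called by their 6-8 h and 3-5 h values, so shares that use these values again were biased beforehand by that choice. They describe the course and do not test it. Among the 1039 higher genes, the 6-8 h mean exceeded the untreated 0 h library for 994 (95.67%, against 52.99% of all tested genes). For 809 of them (77.86%, against 45.65% of all) the 5 h library was already the highest of the 3-5 h window. At 24 h, 929 still stood above their 3-5 h mean (89.41%, against 54.19% of all). Below their 6-8 h mean at 24 h were 492 of the 1039 (47.35%, close to the 47.17% of all). Among the 630 lower genes, 438 had a 3-5 h mean above 0 h (69.52%, against 51.48% of all), and 471 had a 6-8 h mean below 0 h (74.76%, against 47.01% of all). For 474 of them the 5 h library was the lowest of its window (75.24%, against 36.15% of all). At 24 h, 617 of the 630 remained below their 3-5 h mean (97.94%, against 45.68% of all), and 479 lay below their 6-8 h mean (76.03%, against 47.17% of all).

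**Figure D1:**
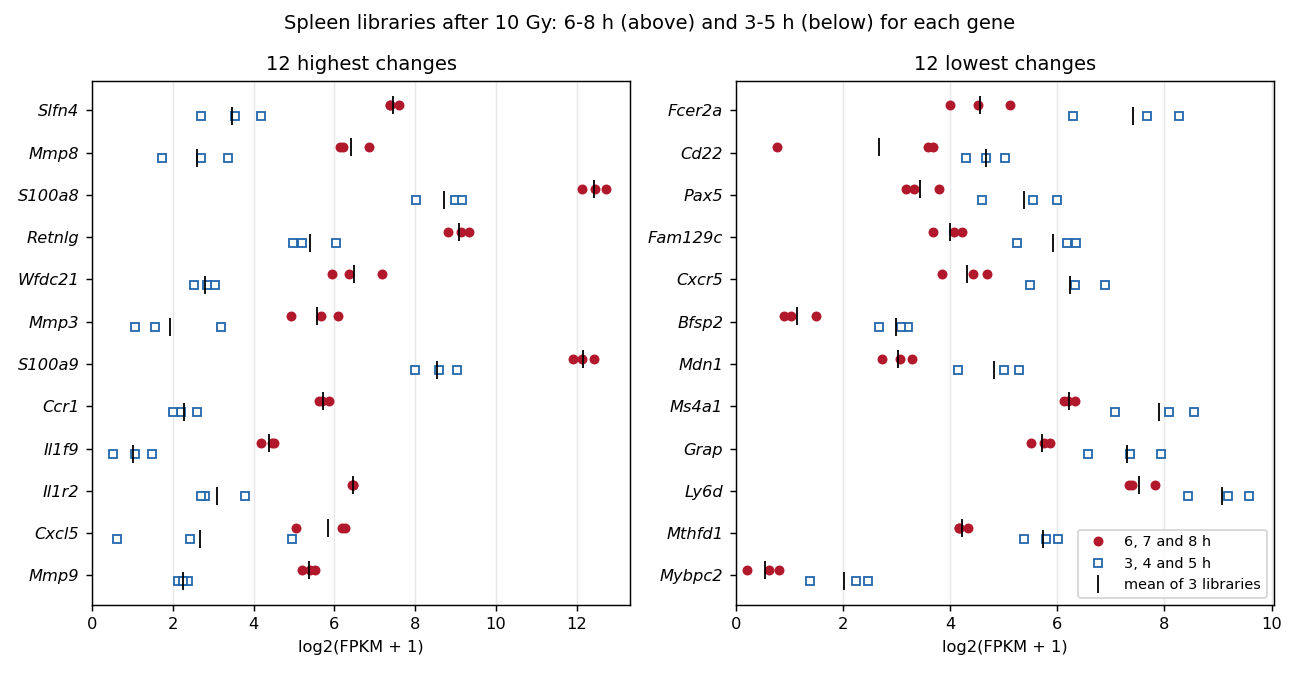
Levels of the 12 genes with the highest and the 12 with the lowest change, as log2(FPKM + 1) on the horizontal axis, 1 gene per row, for the genes named by rule. Filled red circles are the libraries at 6, 7 and 8 h, open blue squares those at 3, 4 and 5 h, and black ticks the means of 3 libraries. In every row the red circles lie on one side of all blue squares, and Cd22 at 8 h (0.692 FPKM) sits far below its other libraries.

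Genes of mature neutrophils had the highest median change of all lists outside the pancreatic acinar genes. Of 15 tested neutrophil markers 10 were higher at 6-8 h and none was lower, with a median log2 change of 2.53. Over all tested genes 8.84% were higher and the median was 0.03. The same numbers of markers were called at 7-8 h alone and when any of the 6 libraries was left out. Summed, the neutrophil markers stood at 11570, 9470 and 13930 FPKM at 6, 7 and 8 h, against 1146, 1448 and 725.2 FPKM at 3, 4 and 5 h. The 3 later sums all exceeded the 3 earlier ones several-fold, the untreated library held 950.4 FPKM, and by 24 h the sum was 1910 FPKM.

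S100a8 and S100a9 encode the paired calcium-binding proteins that make up calprotectin, the most abundant protein of the neutrophil cytosol. S100a8 stood at 5575, 4436 and 6719 FPKM at 6, 7 and 8 h, against 501, 571 and 259 FPKM at 3, 4 and 5 h. S100a9 stood at 4443, 3805 and 5500 FPKM at 6, 7 and 8 h, against 382, 521 and 253 FPKM at 3, 4 and 5 h. Both were lowest at 5 h and high in each of the 3 later libraries, with no overlap. Their log2 changes were 3.71 ± 0.46 (SE, n = 3 each, adjusted p = 7.80e-06) and 3.61 ± 0.46 (adjusted p = 1.34e-05); every value after ± on this scale is such a standard error. Mmp8, the neutrophil collagenase stored in granules, stood at 116, 69.1 and 72.8 FPKM at 6, 7 and 8 h, against 5.49, 9.29 and 2.33 FPKM at 3, 4 and 5 h, a log2 change of 3.80 ± 0.28 (adjusted p = 7.46e-09). Retnlg, a resistin-like protein of mouse neutrophils, stood at 645, 447 and 563 FPKM at 6, 7 and 8 h, against 35.6, 64.9 and 30.4 FPKM at 3, 4 and 5 h, and changed by 3.69 ± 0.38 (adjusted p = 5.70e-07). For these the later window was again above the earlier one in every library, and the 24 h levels of 7.66 FPKM for Mmp8 and 85.7 FPKM for Retnlg were closer to the earlier window. S100a8 lies at chr3:90669071-90670034 and Mmp8 at chr9:7558429-7568486 in GRCm38.p6.

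The promoters of these 4 genes are shown because they are the neutrophil markers with the largest change that have a single start in the RefSeq promoter table for GRCm38.p6. Each runs from 250 bases before the start to 50 after it, and capitals mark matches to TTGCNNAA on either strand, a consensus of C/EBP proteins, transcription factors of granulocyte development. The regions are chr9:7558179-7558478 (plus strand) for Mmp8, chr3:90668821-90669120 (plus) for S100a8, chr16:48872358-48872657 (plus) for Retnlg and chr3:90695672-90695971 (minus) for S100a9.
Mmp8: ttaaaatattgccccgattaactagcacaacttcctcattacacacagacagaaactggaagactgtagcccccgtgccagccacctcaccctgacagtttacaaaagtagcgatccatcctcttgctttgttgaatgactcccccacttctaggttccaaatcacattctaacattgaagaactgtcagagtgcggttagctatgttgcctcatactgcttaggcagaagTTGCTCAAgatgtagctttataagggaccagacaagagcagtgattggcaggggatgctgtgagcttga
S100a8: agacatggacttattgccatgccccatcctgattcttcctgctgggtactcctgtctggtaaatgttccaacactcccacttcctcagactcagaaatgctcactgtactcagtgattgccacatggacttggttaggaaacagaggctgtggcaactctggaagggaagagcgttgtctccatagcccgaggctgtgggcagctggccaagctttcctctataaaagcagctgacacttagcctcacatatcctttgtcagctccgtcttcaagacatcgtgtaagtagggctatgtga
Retnlg: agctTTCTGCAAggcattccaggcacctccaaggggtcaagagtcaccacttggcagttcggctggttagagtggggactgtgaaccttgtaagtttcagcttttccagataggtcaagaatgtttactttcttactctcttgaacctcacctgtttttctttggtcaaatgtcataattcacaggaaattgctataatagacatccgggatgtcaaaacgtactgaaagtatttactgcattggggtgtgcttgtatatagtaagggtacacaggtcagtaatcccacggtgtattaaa
S100a9: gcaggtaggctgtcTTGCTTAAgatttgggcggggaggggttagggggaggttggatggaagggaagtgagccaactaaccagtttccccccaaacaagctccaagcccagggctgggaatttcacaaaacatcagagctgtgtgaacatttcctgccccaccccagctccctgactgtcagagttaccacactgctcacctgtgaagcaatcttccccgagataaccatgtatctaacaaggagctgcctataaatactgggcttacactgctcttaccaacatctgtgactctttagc
The match begins 19 bases before the start in Mmp8, 246 before in Retnlg on the opposite strand and 236 before in S100a9, and S100a8 has none in this window. Of the 9 higher neutrophil markers with an entry in the table, 4 held such a match (44.4%), against 3547 of 32851 promoters (10.8%). A match is a string of letters and was not tested as a binding site.

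The receptor genes Cxcr2, Csf3r and Il1r2 of the list were higher too, whereas the receptor gene Fpr1 did not pass. Cxcr2, the receptor for the neutrophil-attracting CXC chemokines, stood at 102, 110.1 and 94.1 FPKM at 6, 7 and 8 h, against 17.2, 18.8 and 16.8 FPKM at 3, 4 and 5 h. Its log2 change was 2.47 ± 0.23 (adjusted p = 1.57e-07). Csf3r, the receptor for the granulocyte growth factor G-CSF, stood at 85.9, 94.9 and 90.3 FPKM at 6, 7 and 8 h, against 12.2, 18.5 and 14.3 FPKM at 3, 4 and 5 h, with a change of 2.53 ± 0.20 (adjusted p = 7.74e-09). All later libraries were above all earlier ones for both, and within each window the values of Cxcr2 lay close together. Il1r2, the decoy receptor that soaks up interleukin-1, stood at 85.1, 87.4 and 87.6 FPKM at 6, 7 and 8 h, against 5.93, 12.8 and 5.503 FPKM at 3, 4 and 5 h, and changed by 3.36 ± 0.32 (adjusted p = 2.06e-07). Also higher were Mmp9 (gelatinase B, log2 change 3.12), Lcn2 (lipocalin 2, an iron-sequestering defence protein, 3.11) and Chil3 (a chitinase-like protein, 1.17). Among the 5 markers that did not pass, Ngp, Ltf and Camp belong to the secondary granules, which are filled while neutrophils still mature in the marrow. Mmp8, which rose, also encodes a granule protein, and a division of the markers by granule storage was not tested. Camp stood at 30.9, 19.6 and 97.4 FPKM at 6, 7 and 8 h, against 39.7, 51.7 and 19.5 FPKM at 3, 4 and 5 h (log2 change 0.19, adjusted p = 0.778). Ltf stood at 7.71, 4.08 and 28.2 FPKM at 6, 7 and 8 h, against 9.57, 9.95 and 5.94 FPKM at 3, 4 and 5 h, and Ngp at 8 h was likewise the highest of its 6 libraries (129.9 FPKM). The windows of all 3 genes overlapped. Ly6g, which marks the mature mouse neutrophil surface, stood at 10.5, 5.11 and 11.6 FPKM at 6, 7 and 8 h, against 1.29, 1.12 and 0.872 FPKM at 3, 4 and 5 h; its libraries did not overlap but the change of 2.20 did not pass (adjusted p = 0.199). The markers of earlier precursors, Mpo, Elane, Prtn3 and Ctsg, were not among the genes tested.

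Outside the pancreatic genes, the highest log2 change among the named genes was that of Slfn4, a Schlafen-family gene of mouse myeloid cells, at chr11:83175172-83190216. It stood at 165, 192 and 165 FPKM at 6, 7 and 8 h, against 5.495, 17.1 and 10.6 FPKM at 3, 4 and 5 h, a change of 3.98 ± 0.47 (adjusted p = 4.74e-06). The later values lay near each other and far above the earlier ones, the untreated level was 1.71 FPKM and the 24 h level 93.3 FPKM. Slfn4 belongs to a family of similar neighbouring genes, so reads shared with its relatives make the value uncertain. Other genes chosen by the same rule were Wfdc21, which encodes a small secreted protein with a whey acidic protein domain (81.2, 60.1 and 144 FPKM against 7.28, 4.78 and 6.19 FPKM), and Ccr1, a receptor for CC chemokines on myeloid cells (50.8, 57.05 and 47.9 FPKM against 3.59, 5.05 and 3.03 FPKM). Ccr1 changed by 3.45 ± 0.27 (adjusted p = 7.74e-09) and Wfdc21 by 3.68 ± 0.54 (adjusted p = 7.65e-05).

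The following genes lay outside the rule for named genes and were chosen after their values were seen, so they stand for no group. C5ar1, the receptor for the complement fragment C5a, stood at 23.00, 21.8 and 24.2 FPKM at 6, 7 and 8 h, against 0.987, 1.47 and 3.68 FPKM at 3, 4 and 5 h (log2 change 3.08 ± 0.36). Hdc, the enzyme that makes histamine, stood at 48.01, 50.1 and 62.95 FPKM at 6, 7 and 8 h, against 3.39, 10.3 and 4.87 FPKM at 3, 4 and 5 h (3.04 ± 0.26). Clec4d, a C-type lectin of myeloid cells, stood at 59.01, 67.9 and 68.05 FPKM at 6, 7 and 8 h, against 7.28, 11.7 and 9.26 FPKM at 3, 4 and 5 h (2.68 ± 0.31). Trem1, an activating receptor that amplifies neutrophil and monocyte responses, stood at 13.7, 13.8 and 14.04 FPKM at 6, 7 and 8 h, against 0.612, 2.296 and 1.78 FPKM at 3, 4 and 5 h (2.59 ± 0.27). In each of the 4 genes the libraries of the windows were separate and the 7-8 h test alone also passed. The same held for Padi4 (the enzyme that citrullinates histones in neutrophils, 2.08), Nlrp12 (2.32), Chil1 (2.94), Asprv1 (2.74), Tnfsf14 (the ligand LIGHT, 2.29) and Lrg1 (2.62). H2-Q10, a class I-like gene known for its secretion by liver, stood at 24.1, 28.4 and 22.8 FPKM at 6, 7 and 8 h, against 3.13, 3.44 and 2.31 FPKM at 3, 4 and 5 h, but it shares sequence with other H2-Q genes, which makes its level uncertain.

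Some genes encode members of the interleukin-1 family or its inhibitors, which had no list of their own. Il1b is on the NF-kB list, whereas Il1rn, Il33 and Irg1 are on none and were chosen after their values were seen. Il1f9, interleukin-36 gamma, a relative of interleukin-1, stood at 17.3, 21.8 and 21.02 FPKM at 6, 7 and 8 h, against 1.103, 1.79 and 0.435 FPKM at 3, 4 and 5 h. Its log2 change was 3.36 ± 0.35 (adjusted p = 8.37e-07), with no overlap. Il1rn, the soluble antagonist of the interleukin-1 receptor, stood at 57.95, 55.4 and 48.1 FPKM at 6, 7 and 8 h, against 2.62, 7.91 and 19.1 FPKM at 3, 4 and 5 h, and changed by 2.66 ± 0.41 (adjusted p = 1.38e-04). Il33, an alarmin of stromal cells, stood at 108, 101 and 66.1 FPKM at 6, 7 and 8 h, against 5.58, 13.2 and 60.04 FPKM at 3, 4 and 5 h (2.35 ± 0.61, adjusted p = 0.0136). Its 5 h library was already close to the 8 h level, while 3 and 4 h were far lower. Il1b itself stood at 222, 211 and 148 FPKM at 6, 7 and 8 h, against 30.02, 63.03 and 159 FPKM at 3, 4 and 5 h. The 5 h value lies above the 8 h value, so the windows overlapped; the change of 1.49 ± 0.44 passed over 6-8 h (adjusted p = 0.0259) but not at 7-8 h alone (adjusted p = 0.0793). Irg1, which makes itaconate in activated macrophages, stood at 8.21, 13.2 and 12.5 FPKM at 6, 7 and 8 h, against 0.111, 1.56 and 1.05 FPKM at 3, 4 and 5 h (2.75 ± 0.32).

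Of 20 tested chemokines 3 were higher, against 8.84% of all tested genes, and none was lower. The median log2 change was 0.42, and 0.07 without the 3 h library; 6 were higher without the 5 h library and 2 without 3 h or 8 h. Cxcl5, a neutrophil attractant, stood at 72.3, 75.9 and 32.2 FPKM at 6, 7 and 8 h, against 0.548, 4.34 and 29.7 FPKM at 3, 4 and 5 h, a change of 3.17 ± 0.61 (adjusted p = 0.00144). Its 5 h library had nearly reached the 8 h level, whereas 3 h was close to the untreated 0.569 FPKM. Ccl6 stood at 109.7, 119.6 and 156 FPKM at 6, 7 and 8 h, against 24.4, 27.7 and 24.4 FPKM at 3, 4 and 5 h and changed by 2.27 ± 0.25 (adjusted p = 1.37e-06), and Ccl9 changed by 1.44 ± 0.35 (adjusted p = 0.00923). Of the 20 chemokines 6 had every later library above every earlier one (19% of all tested genes did), and the rest overlapped between windows. Cxcl1, a neutrophil attractant, stood at 43.5, 16.9 and 10.7 FPKM at 6, 7 and 8 h, against 5.33, 24.7 and 89.4 FPKM at 3, 4 and 5 h. Ccl2, which draws monocytes, stood at 86.1, 40.3 and 22.2 FPKM at 6, 7 and 8 h, against 19.8, 44.7 and 78.99 FPKM at 3, 4 and 5 h. Their highest libraries were 5 h and 6 h, and for Cxcl2, another neutrophil attractant, it was 4 h (18.4 FPKM). In all 3 genes the 8 h library was the lowest of the later window, the windows overlapped and none passed (log2 changes -0.22, 0.02 and 0.05). Ccl11, the eosinophil attractant eotaxin, was outside the list and was chosen after its values were seen. It stood at 58.3, 40.9 and 35.9 FPKM at 6, 7 and 8 h, against 2.13, 5.76 and 28.9 FPKM at 3, 4 and 5 h (2.39 ± 0.43).

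Genes of matrix breakdown and repair also rose. For the counts of this paragraph, the shares of all tested genes were 8.84% higher and 5.36% lower. Of 17 matrix and remodelling genes 9 were higher and none was lower, with a median of 0.87; 8 were higher at 7-8 h alone. Mmp8 and Mmp9 of this list are also neutrophil markers. Mmp3, stromelysin 1, stood at 29.2, 49.8 and 67.2 FPKM at 6, 7 and 8 h, against 1.08, 1.93 and 8.13 FPKM at 3, 4 and 5 h, a change of 3.63 ± 0.45 (adjusted p = 1.06e-05). It increased hour by hour in these single libraries and did not overlap between windows. Timp1, the secreted inhibitor of matrix metalloproteinases, stood at 93.00, 114 and 142 FPKM at 6, 7 and 8 h, against 10.3, 12.1 and 35.8 FPKM at 3, 4 and 5 h (2.72 ± 0.51, adjusted p = 0.00112) and was listed at 0 in the untreated library. Mmp19 (1.74), the matrix glycoproteins Tnc (1.51) and Vcan (0.88), the basement membrane collagen Col4a1 (0.87) and Spp1, osteopontin (2.46), completed the 9. Spp1 is also a pancreatic duct marker; at 7-8 h alone its change was 2.08 (adjusted p = 0.00364). The fibrillar collagen gene Col1a1 stood at 7.998, 10.4 and 12.4 FPKM at 6, 7 and 8 h, against 6.01, 4.78 and 8.75 FPKM at 3, 4 and 5 h and did not pass (0.60, adjusted p = 0.243). Of 18 endothelial and stromal markers 4 were higher and none lower (8 without the 5 h library, 2 without 6 h, 1 without 3, 4 or 7 h), among them Tlx1, a transcription factor of spleen stroma (30.9, 25.4 and 28.6 FPKM against 12.5, 9.75 and 25.7 FPKM, 0.90 ± 0.19), whose 5 h library lay within the later window.

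**Figure D2:**
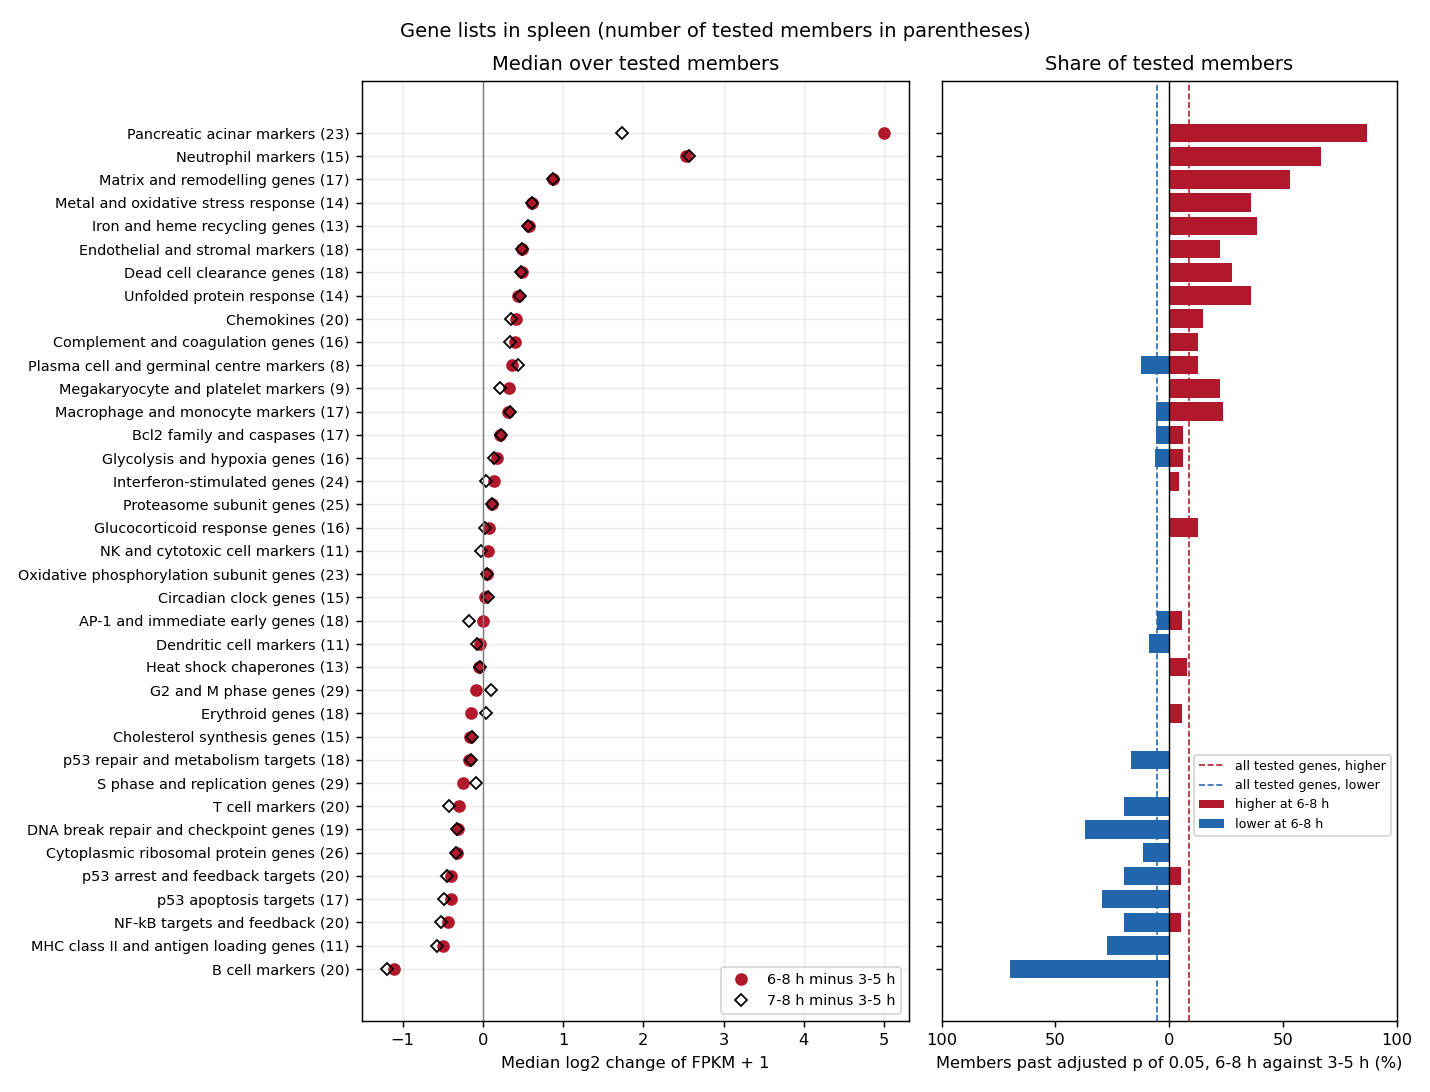
Left, the median log2 change of FPKM + 1 for each gene list with 8 or more tested members, with red circles for 6-8 h minus 3-5 h and open diamonds for 7-8 h minus 3-5 h. Right, the percentage of tested members that were higher (red, to the right) or lower (blue, to the left) at 6-8 h, with dashed lines at the shares of all tested genes, 8.84% higher and 5.36% lower. Neutrophil markers lie at 2.53 and B cell markers at -1.11, and the circles and diamonds lie apart mainly for pancreatic acinar markers, at 4.996 and 1.73.

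Macrophage genes changed less than neutrophil genes. Of 17 macrophage and monocyte markers 4 were higher and 1 was lower, against 8.84% and 5.36% of all tested genes, with a median of 0.31. Their summed level was 6619 to 6940 FPKM at 6-8 h, against 4070 to 5987 FPKM at 3-5 h. Itgam, the integrin CD11b shared by neutrophils and monocytes, stood at 25.96, 34.5 and 32.3 FPKM at 6, 7 and 8 h, against 7.96, 11.5 and 7.73 FPKM at 3, 4 and 5 h (1.68 ± 0.24, adjusted p = 4.85e-05). Ccr2, the receptor of inflammatory monocytes, stood at 20.8, 24.6 and 24.96 FPKM at 6, 7 and 8 h, against 8.91, 10.6 and 13.1 FPKM at 3, 4 and 5 h (1.05 ± 0.19, adjusted p = 7.67e-04). Both were separate between windows. Cd68, an endosomal protein, and Lyz2, lysozyme, rose by 0.80 ± 0.18 and 0.60 ± 0.18; Lyz2 did not pass at 7-8 h alone (adjusted p = 0.0518). Cx3cr1, the fractalkine receptor, stood at 1.78, 3.89 and 2.07 FPKM at 6, 7 and 8 h, against 7.04, 4.701 and 5.84 FPKM at 3, 4 and 5 h and fell (-0.97 ± 0.21, adjusted p = 0.00354). The general macrophage marker Adgre1 (F4/80) stood at 118, 84.5 and 99.7 FPKM at 6, 7 and 8 h, against 79.6, 73.4 and 160.1 FPKM at 3, 4 and 5 h. Spic, the transcription factor of red pulp macrophages, stood at 307, 206 and 239 FPKM at 6, 7 and 8 h, against 191, 226 and 249.6 FPKM at 3, 4 and 5 h. Neither passed, and in both the windows overlapped.

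Some genes of iron and heme recycling and of dead cell clearance rose and none was called lower, but the counts changed when single libraries were left out. Beside them stand 8.84% of all tested genes that were higher. Of 13 iron and heme recycling genes 5 were higher and none was lower (median 0.58; 3 higher at 7-8 h alone, 1 without the 3 h or the 4 h library, 2 without 8 h and 3 without 7 h). Hp, haptoglobin, which binds free haemoglobin and is also stored in neutrophil granules, stood at 184, 163 and 169 FPKM at 6, 7 and 8 h, against 18.1, 34.4 and 16.5 FPKM at 3, 4 and 5 h (2.92 ± 0.60, adjusted p = 0.00239). Fth1, the ferritin heavy chain, stood at 4115, 3994 and 4557 FPKM at 6, 7 and 8 h, against 1698, 2179 and 3308 FPKM at 3, 4 and 5 h, a change of 0.87 ± 0.27 (adjusted p = 0.0306, and 0.0642 at 7-8 h alone). Ftl1, Slc11a1 (an iron transporter of phagosomes) and Blvra (biliverdin reductase) changed by 0.58, 0.70 and 0.66. After quantile normalization the sign turned for Fth1 (-0.04), Ftl1 (-0.16) and Lyz2 (-0.46), so their direction rests on the deposited scaling; the ferritin genes also have near-identical pseudogenes. Of 18 dead cell clearance genes 5 were higher and none lower (median 0.49), led by Tgm2, the transglutaminase that helps macrophages engulf apoptotic cells, at 217, 232 and 225 FPKM at 6, 7 and 8 h, against 78.8, 108 and 145 FPKM at 3, 4 and 5 h (1.06 ± 0.30, adjusted p = 0.0206). Cd68, Stab1, Pros1 and Stab2 were the others. Without the 5 h library 12 of the 18 were higher, without 3 h or 4 h 1 was, without 7 h or 8 h 2 were, and without 6 h 3 were. Mertk, the receptor that tethers apoptotic cells, stood at 56.3, 54.4 and 57.2 FPKM at 6, 7 and 8 h, against 28.4, 30.6 and 53.8 FPKM at 3, 4 and 5 h and did not pass (0.62, adjusted p = 0.107).

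Metal and oxidative stress genes were similar: 5 of 14 were higher and none lower (median 0.61), and 3 of 14 at 7-8 h alone, as without the 3, 4 or 7 h library. Mt1, the metal-binding metallothionein 1, stood at 949.8, 612 and 468 FPKM at 6, 7 and 8 h, against 93.1, 216 and 472 FPKM at 3, 4 and 5 h, a change of 1.61 ± 0.47 (adjusted p = 0.0256) that did not pass at 7-8 h alone (adjusted p = 0.105). Its 5 h value was slightly above its 8 h value. Gsr, glutathione reductase, stood at 86.3, 88.2 and 93.4 FPKM at 6, 7 and 8 h, against 26.4, 31.6 and 36.2 FPKM at 3, 4 and 5 h (1.49 ± 0.20, adjusted p = 2.97e-05). Slc7a11, the cystine importer, stood at 12.8, 14.8 and 11.8 FPKM at 6, 7 and 8 h, against 4.26, 4.42 and 8.27 FPKM at 3, 4 and 5 h (1.13 ± 0.17, adjusted p = 7.65e-05). In both the windows were separate. Txn1 and Srxn1, thioredoxin and sulfiredoxin, changed by 0.95 and 0.93. A share of 8.84% of all tested genes was higher, which applies to this list and the next. Of 14 genes of the unfolded protein response 5 were higher at 6-8 h, and none was lower (median 0.44). Xbp1, the transcription factor of secretory cells, stood at 214, 199.5 and 202 FPKM at 6, 7 and 8 h, against 68.03, 77.7 and 126 FPKM at 3, 4 and 5 h (1.22 ± 0.17, adjusted p = 4.51e-05). Sdf2l1, Dnajb9, Calr and Sel1l were the others. The chaperone Hspa5 stood at 422, 414 and 480.2 FPKM at 6, 7 and 8 h, against 324, 286 and 315 FPKM at 3, 4 and 5 h, separate between windows, but did not pass (adjusted p = 0.061). The exocrine pancreas is itself rich in such genes, and its part in these changes was not tested. At 7-8 h alone 5 of the 14 were called and Xbp1 changed by 1.19. The summed acinar genes stood at 326.5 FPKM at 7 h and 42.61 FPKM at 8 h, against 11.75 to 17.5 FPKM at 3-5 h. Without the 3 h or the 8 h library 2 of the 14 were called, and without 4 h 1 was.

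B cell genes had the lowest median change of all lists. Of 20 B cell markers 14 were lower at 6-8 h and none was higher, against 5.36% of all tested genes lower, and their median log2 change was -1.11. At 7-8 h alone 13 were lower, and 11 to 16 were lower when any of the 6 libraries was left out. Summed over the list they stood at 772.2, 765 and 716 FPKM at 6, 7 and 8 h, against 2253, 1815 and 1216 FPKM at 3, 4 and 5 h. The later sums lay close together and below every earlier sum, the untreated library held 3781 FPKM and the 24 h library 628 FPKM. Within the earlier window the sum was lower at each hour.

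Fcer2a, the low-affinity IgE receptor CD23 of follicular B cells at chr8:3680280-3694174, stood at 33.9, 21.9 and 15.02 FPKM at 6, 7 and 8 h, against 306, 203 and 77.7 FPKM at 3, 4 and 5 h. Its log2 change of -2.86 ± 0.39 (adjusted p = 2.86e-05) was the lowest of all named genes, and it was the gene past 4-fold downward. The 3 h and 4 h levels were above the untreated 149 FPKM, and by 24 h 2.22 FPKM were left. Pax5, the transcription factor that maintains B cell identity, stood at 12.9, 7.997 and 9.02 FPKM at 6, 7 and 8 h, against 63.1, 45.9 and 23.1 FPKM at 3, 4 and 5 h (-1.95 ± 0.24, adjusted p = 9.82e-06). Cd22, an inhibitory receptor of B cells, stood at 11.8, 10.9 and 0.692 FPKM at 6, 7 and 8 h, against 31.3, 24.4 and 18.8 FPKM at 3, 4 and 5 h (-1.99 ± 0.49, adjusted p = 0.00872). All later libraries of both genes were below all earlier ones, but the 8 h value of Cd22 was about 1 order below its 6 and 7 h values, and at 24 h the level was 13.6 FPKM. Without the 8 h library the change of Cd22 was -1.03 and did not pass. Ms4a1, the surface protein CD20, stood at 79.3, 72.04 and 69.1 FPKM at 6, 7 and 8 h, against 374, 269 and 134 FPKM at 3, 4 and 5 h (-1.69 ± 0.25, adjusted p = 6.94e-05). Its later values were nearly equal, whereas the earlier ones were lower at each hour. Cxcr5, which guides B cells into follicles, stood at 24.6, 20.6 and 13.4 FPKM at 6, 7 and 8 h, against 118, 79.2 and 44.2 FPKM at 3, 4 and 5 h (-1.92 ± 0.24, adjusted p = 1.08e-05).

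The promoters of Cd22 and Pax5 are shown as the B cell markers with the lowest change and a single listed start; capitals mark matches on either strand to CCCNNGGG, the core of the near-palindrome bound by the B cell factor EBF1. The regions are chr7:30878979-30879278 (minus strand) for Cd22, whose listed start lies inside the outer bounds of the gene, and chr4:44710645-44710944 (minus) for Pax5, in GRCm38.p6.
Cd22: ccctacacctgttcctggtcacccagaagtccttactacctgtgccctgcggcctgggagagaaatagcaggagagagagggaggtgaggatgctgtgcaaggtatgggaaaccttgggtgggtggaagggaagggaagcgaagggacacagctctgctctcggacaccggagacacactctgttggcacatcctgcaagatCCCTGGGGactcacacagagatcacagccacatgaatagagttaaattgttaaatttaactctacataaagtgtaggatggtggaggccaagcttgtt
Pax5: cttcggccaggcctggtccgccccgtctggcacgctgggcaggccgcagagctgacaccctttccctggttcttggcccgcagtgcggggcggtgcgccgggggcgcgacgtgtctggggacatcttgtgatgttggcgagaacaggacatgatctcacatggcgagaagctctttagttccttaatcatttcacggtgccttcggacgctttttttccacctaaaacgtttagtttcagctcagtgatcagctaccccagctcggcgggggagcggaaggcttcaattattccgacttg
The match in Cd22 begins 48 bases before the start and Pax5 has none in this window. The 10 lower B cell markers with an entry had 13 promoters listed, of which 2 held a match (15.4%), close to the 4491 of 32851 promoters that did (13.7%). Whether EBF1 binds there was not tested.

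The other B cell genes fell less. Tnfrsf13c, the receptor for the survival factor BAFF, stood at 10.8, 11.6 and 10.7 FPKM at 6, 7 and 8 h, against 47.6, 35.8 and 13.8 FPKM at 3, 4 and 5 h (-1.31 ± 0.27, adjusted p = 0.00223), with the 5 h library already near the later values. Spib, Fcmr, Ebf1, Cd79a, Cr2, Blnk and Blk changed by -1.25, -1.22, -1.13, -1.09, -1.06, -0.84 and -0.59. Cd79b, Bank1 and Cd72 were likewise below their earlier libraries at 6, 7 and 8 h but did not pass (adjusted p = 0.21, 0.0678 and 0.0609). Cd79b stood at 86.3, 105 and 112 FPKM at 6, 7 and 8 h, against 293, 224 and 153 FPKM at 3, 4 and 5 h, and at 871 FPKM in the untreated spleen. Btk, a kinase below the B cell receptor, stood at 30.6, 29.3 and 30.5 FPKM at 6, 7 and 8 h, against 28.2, 35.2 and 29.9 FPKM at 3, 4 and 5 h. Pou2af1, a coactivator that plasma cells also use, stood at 90.3, 99.7 and 98.4 FPKM at 6, 7 and 8 h, against 75.9, 83.01 and 90.8 FPKM at 3, 4 and 5 h. Both overlapped between windows and neither passed (log2 changes -0.04 and 0.21). Ly6d, a surface protein of lymphocytes outside the list, stood at 225, 168 and 160.4 FPKM at 6, 7 and 8 h, against 766, 583 and 348 FPKM at 3, 4 and 5 h (-1.55 ± 0.37, adjusted p = 0.00813).

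Antigen presentation genes, many of which B cells carry, had a smaller median change. Of 11 MHC class II and antigen loading genes 3 were lower and none was higher (5.36% and 8.84% of all tested genes), and for 10 of the 11 every later library lay below every earlier one (16% of all), with a median of -0.49. Without the 3 h or the 8 h library 1 was lower, and without 4 h or 6 h 2 were. H2-DMb2, a subunit of the peptide exchange factor, stood at 30.2, 27.9 and 28.7 FPKM at 6, 7 and 8 h, against 71.3, 77.3 and 51.95 FPKM at 3, 4 and 5 h (-1.16 ± 0.20, adjusted p = 4.01e-04). H2-Ob, of the inhibitor of that factor known mainly from B cells, stood at 22.9, 25.1 and 17.8 FPKM at 6, 7 and 8 h, against 47.4, 36.8 and 36.9 FPKM at 3, 4 and 5 h (-0.86 ± 0.21, adjusted p = 0.00886). Ciita, the master regulator of class II genes, changed by -0.78 ± 0.21 (adjusted p = 0.0148; 0.0521 at 7-8 h alone). The class II chain H2-Aa stood at 1664, 1513 and 1533 FPKM at 6, 7 and 8 h, against 2278, 2016 and 1882 FPKM at 3, 4 and 5 h. Cd74, the invariant chain, stood at 2295, 2161 and 2196 FPKM at 6, 7 and 8 h, against 3555, 3556 and 2899 FPKM at 3, 4 and 5 h. Each was lower in every later library, but neither passed (adjusted p = 0.375 and 0.32). Of 11 dendritic cell markers only Cd83, an activation marker that B cells also carry, fell (-0.77 ± 0.26, adjusted p = 0.0492), and it did not pass at 7-8 h alone (adjusted p = 0.0737) or when any of the 6 libraries was left out. Itgax (CD11c) stood at 31.8, 37.98 and 33.1 FPKM at 6, 7 and 8 h, against 19.99, 24.1 and 27.1 FPKM at 3, 4 and 5 h and did not pass.

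T cell genes changed in smaller number than B cell genes. The shares of all tested genes were 5.36% lower and 8.84% higher. Of 20 T cell markers 4 were lower and none was higher (median -0.29; 2 lower at 7-8 h alone and without the 3 h or 8 h library, 1 without 4 h or 7 h). Cd8b1, a chain of the CD8 coreceptor, stood at 12.2, 11.6 and 8.63 FPKM at 6, 7 and 8 h, against 35.8, 32.95 and 17.9 FPKM at 3, 4 and 5 h, a change of -1.30 ± 0.24 (adjusted p = 0.00121). Lef1 (a transcription factor of naive T cells), Cd5 and Lat (a signalling adaptor) changed by -0.75, -0.70 and -0.57. Cd3e stood at 25.3, 23.1 and 24.2 FPKM at 6, 7 and 8 h, against 27.99, 33.3 and 36.5 FPKM at 3, 4 and 5 h, with all later libraries below the earlier ones and no pass (adjusted p = 0.345). Cd4, which macrophages and dendritic cells of the mouse can also carry, stood at 43.02, 48.8 and 52.4 FPKM at 6, 7 and 8 h, against 39.2, 37.2 and 51.9 FPKM at 3, 4 and 5 h and overlapped. The summed T cell markers were 525.3 to 556.7 FPKM at 6-8 h, against 595.1 to 699.4 FPKM at 3-5 h. Of 11 NK and cytotoxic cell markers none passed in either direction. Of 8 plasma cell and germinal centre markers Fkbp11 was higher (1.46, not called at 7-8 h, adjusted p = 0.137) and Irf4, needed for plasma cell fate, lower (-0.75 ± 0.19). Jchain, which joins secreted antibodies, stood at 719.8, 813 and 1160 FPKM at 6, 7 and 8 h, against 482, 394 and 749 FPKM at 3, 4 and 5 h and did not pass (adjusted p = 0.106).

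**Figure D3:**
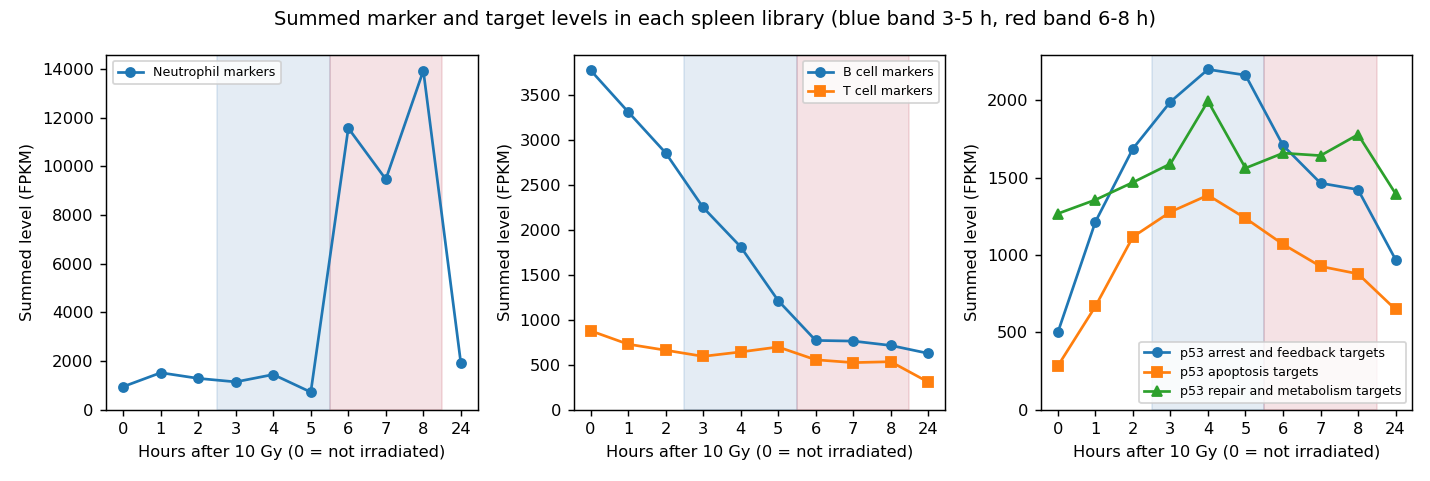
Summed FPKM of cell type markers and p53 target lists (vertical axes, from 0) in each spleen library from 0 to 24 h (horizontal axis, not to scale after 8 h); each point is a single library. Neutrophil markers lie at 9470 FPKM or more at 6, 7 and 8 h and at 1448 FPKM or less at 3, 4 and 5 h, B cell markers stand at 3781 FPKM at 0 h and 716 FPKM at 8 h, and p53 arrest targets are highest at 2200 FPKM at 4 h.

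Some targets of p53 were lower in the later window. Of 54 p53 targets tested, 12 were lower at 6-8 h and 1 was higher, with a median of -0.33. Over all tested genes 5.36% were lower and 8.84% higher. Of the 54, 27 had every later library below every earlier one, against 16% of all tested genes. Relative to the single untreated library, 45 of the 54 had a 6-8 h mean above 0 h (52.99% of all tested genes did) and 41 a 3-5 h mean above it (51.48% of all). Of the 12 that fell, 11 had a 6-8 h mean above 0 h. At 24 h all 12 lay below their 6-8 h mean. The summed arrest and feedback targets were 1709, 1465 and 1423 FPKM at 6, 7 and 8 h, against 1991, 2200 and 2163 FPKM at 3, 4 and 5 h, with 501.5 FPKM untreated. By list, 4 of 20 arrest and feedback targets, 5 of 17 apoptosis targets and 3 of 18 repair and metabolism targets were lower. These counts rest on single libraries: without the 3 h or the 4 h library 1 target of each list was lower, without the 7 h library 2, 2 and 3 were, and without the 8 h library 1, 2 and 1 were.

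Among the arrest and feedback targets, Plk2, a stress-responsive kinase, stood at 48.5, 35.7 and 30.6 FPKM at 6, 7 and 8 h, against 71.3, 77.6 and 75.6 FPKM at 3, 4 and 5 h. Its change was -0.97 ± 0.23 (adjusted p = 0.00639), its windows did not overlap, and the untreated level was 4.26 FPKM. Gtse1, which acts in G2 and dampens p53, stood at 34.6, 25.9 and 23.01 FPKM at 6, 7 and 8 h, against 56.3, 58.4 and 51.9 FPKM at 3, 4 and 5 h (-0.99 ± 0.28, adjusted p = 0.0196). Ppm1d, the phosphatase that switches the damage response off, stood at 19.5, 19.6 and 15.8 FPKM at 6, 7 and 8 h, against 36.7, 32.5 and 25.1 FPKM at 3, 4 and 5 h (-0.74 ± 0.20, adjusted p = 0.0177). Ccng1, cyclin G1, stood at 319, 268 and 266 FPKM at 6, 7 and 8 h, against 467, 438 and 353 FPKM at 3, 4 and 5 h (-0.55 ± 0.17, adjusted p = 0.0335). In all of these the later window was the lower in every library. Cdkn1a, the cyclin-dependent kinase inhibitor p21, stood at 296, 219 and 216 FPKM at 6, 7 and 8 h, against 256, 276 and 311 FPKM at 3, 4 and 5 h. It overlapped between windows, did not pass (-0.22 ± 0.27, adjusted p = 0.629) and remained far above the untreated 4.45 FPKM. Mdm2, the ligase that degrades p53, stood at 89.2, 79.1 and 73.1 FPKM at 6, 7 and 8 h, against 108, 120.4 and 98.8 FPKM at 3, 4 and 5 h, separate between windows but short of the threshold (-0.44 ± 0.15, adjusted p = 0.0576). Cdc42se1 was the target that rose (0.41 ± 0.14), and it did not pass at 7-8 h alone (adjusted p = 0.105).

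Among the apoptosis targets, Bbc3, the killer protein PUMA, stood at 27.9, 30.9 and 29.9 FPKM at 6, 7 and 8 h, against 55.7, 53.2 and 42.05 FPKM at 3, 4 and 5 h (-0.74 ± 0.20, adjusted p = 0.0142). Pidd1, which assembles the caspase-2 platform, stood at 10.1, 8.36 and 6.15 FPKM at 6, 7 and 8 h, against 17.4, 23.5 and 17.8 FPKM at 3, 4 and 5 h (-1.17 ± 0.27, adjusted p = 0.00663). Aen (an apoptosis nuclease), Ei24 and Bcl2l11 (the killer protein BIM) changed by -0.66, -0.69 and -0.63. In each of these 5 genes all later libraries were below the earlier ones. Bax stood at 385, 335 and 323 FPKM at 6, 7 and 8 h, against 413, 454 and 427 FPKM at 3, 4 and 5 h. Pmaip1, the killer protein NOXA, stood at 69.2, 61.1 and 53.6 FPKM at 6, 7 and 8 h, against 74.4, 84.6 and 83.4 FPKM at 3, 4 and 5 h. Both were lower in every later library without passing (adjusted p = 0.31 and 0.392). Fas, the death receptor, stood at 52.96, 41.8 and 33.8 FPKM at 6, 7 and 8 h, against 45.9, 56.1 and 51.97 FPKM at 3, 4 and 5 h and overlapped. Among the repair and metabolism targets, Ddias (-1.04 ± 0.24), Polk, a polymerase that copies damaged DNA (-0.86 ± 0.24), and Ddb2, a sensor of ultraviolet damage (-0.65 ± 0.21), were lower. Of the 12 lower targets, Ddb2 alone stood below its untreated level of 15.7 FPKM in both windows, with 5.04, 7.92 and 6.76 FPKM at 6, 7 and 8 h, against 9.57, 11.3 and 11.3 FPKM at 3, 4 and 5 h. It did not pass at 7-8 h alone (adjusted p = 0.178).

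**Figure D4:**
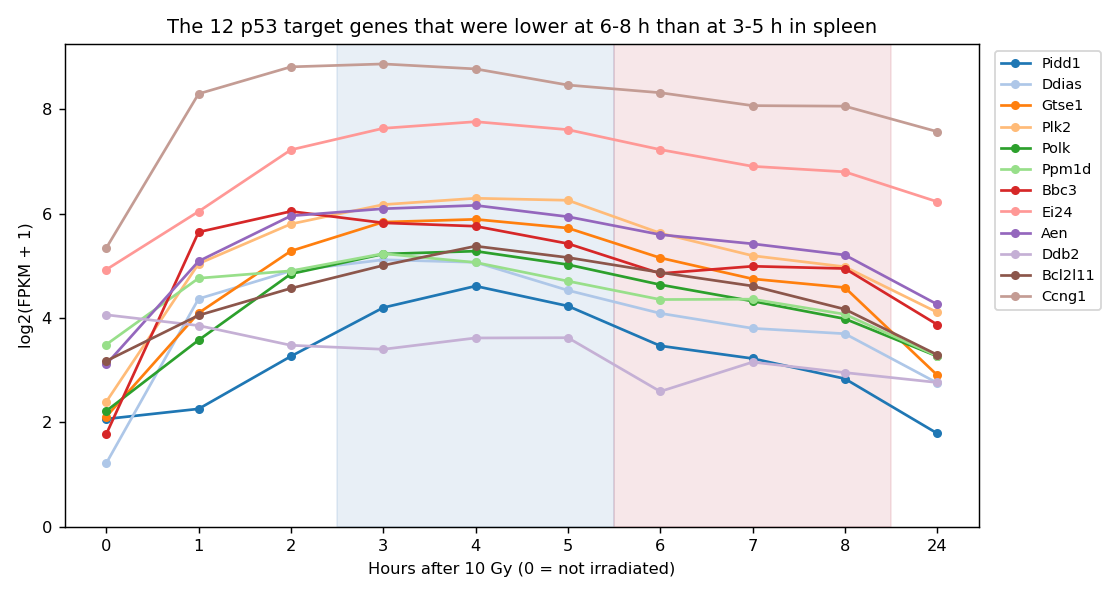
The 12 p53 targets that were lower at 6-8 h (red band) than at 3-5 h (blue band), as log2(FPKM + 1) against hours after irradiation; each point is a single library and the axis is not to scale after 8 h. Of the 12 genes 11 stand above their 0 h value through both windows, and Ddb2 lies below its 0 h value of 15.7 FPKM.

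DNA break repair and checkpoint genes, which are mostly not p53 targets, were lower in part. Across all tested genes 5.36% were lower. Of 19, 7 were lower and none was higher (median -0.30; 4 lower at 7-8 h alone and without the 7 h or 8 h library, 1 without 3 h and 3 without 4 h). Atm, the kinase that senses breaks, stood at 5.43, 4.27 and 4.501 FPKM at 6, 7 and 8 h, against 11.9, 10.3 and 6.42 FPKM at 3, 4 and 5 h (-0.85 ± 0.20, adjusted p = 0.00741). Chek2, a kinase it activates, stood at 10.8, 10.2 and 8.62 FPKM at 6, 7 and 8 h, against 19.8, 19.8 and 15.6 FPKM at 3, 4 and 5 h (-0.83 ± 0.20, adjusted p = 0.00884). Xrcc6, a subunit of the Ku end-binding complex, changed by -0.76 ± 0.23 and did not pass at 7-8 h alone (adjusted p = 0.0896). Atr, Rad50, Mdc1 and Mre11a changed by -0.70, -0.66, -0.51 and -0.40. Of 29 S phase genes and 29 G2 and M phase genes none passed at either window (medians -0.25 and -0.08). Mki67, which marks cycling cells, stood at 10.9, 18.7 and 20.5 FPKM at 6, 7 and 8 h, against 19.1, 24.7 and 12.1 FPKM at 3, 4 and 5 h. Pcna, the replication clamp, stood at 39.97, 40.9 and 43.05 FPKM at 6, 7 and 8 h, against 55.6, 62.1 and 39.8 FPKM at 3, 4 and 5 h. Both overlapped between windows, Pcna through its 5 h library, and all 6 libraries lay below the untreated 33.7 FPKM of Mki67 and 72.03 FPKM of Pcna.

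Mdn1, a giant ATPase that remodels the precursor of the large ribosomal subunit, stood at 8.74, 7.36 and 5.63 FPKM at 6, 7 and 8 h, against 37.9, 31.1 and 16.7 FPKM at 3, 4 and 5 h. Its change was -1.78 ± 0.29 (adjusted p = 2.00e-04), and the untreated level of 7.05 FPKM was close to the later window. Mthfd1, a folate enzyme that feeds purine synthesis, stood at 19.2, 16.9 and 16.9 FPKM at 6, 7 and 8 h, against 63.9, 54.6 and 40.5 FPKM at 3, 4 and 5 h (-1.51 ± 0.25, adjusted p = 4.00e-04), with 21.4 FPKM untreated. Cad, which starts pyrimidine synthesis, and Utp20, of the small ribosomal subunit processome, were chosen after their values were seen. Cad stood at 13.9, 13.9 and 11.96 FPKM at 6, 7 and 8 h, against 41.3, 44.4 and 31.4 FPKM at 3, 4 and 5 h (-1.48 ± 0.37). Utp20 stood at 8.75, 8.77 and 7.45 FPKM at 6, 7 and 8 h, against 28.01, 25.7 and 16.4 FPKM at 3, 4 and 5 h (-1.35 ± 0.28). For all 4 genes the earlier window was above both the later window and the untreated library. Of 26 cytoplasmic ribosomal protein genes 3, among them Rps15 and Rpl8, were lower and none was higher, against 5.36% of all tested genes lower, and the median was -0.32. Every later library lay below every earlier one for 20 of them, against 16% of all tested genes. Their count depended on scaling, with 17 lower after quantile normalization and 9 after equalizing the summed FPKM. Without the 3, 4, 7 or 8 h library none was called and without 5 h 6 were, and such genes share reads with pseudogenes. Rps15 stood at 1377, 1271 and 1281 FPKM at 6, 7 and 8 h, against 1955, 1806 and 1617 FPKM at 3, 4 and 5 h (-0.45 ± 0.14, adjusted p = 0.0333).

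Other genes low at 6-8 h by the rule for named genes were Fam129c, a gene known from B cells, and Grap, a signalling adaptor of lymphocytes. Fam129c stood at 15.8, 17.8 and 11.8 FPKM at 6, 7 and 8 h, against 80.1, 71.99 and 37.1 FPKM at 3, 4 and 5 h. Grap stood at 57.4, 44.4 and 52.98 FPKM at 6, 7 and 8 h, against 244, 164 and 94.6 FPKM at 3, 4 and 5 h. Bfsp2, known as a filament protein of the eye lens, stood at 1.04, 1.83 and 0.863 FPKM at 6, 7 and 8 h, against 8.28, 7.52 and 5.39 FPKM at 3, 4 and 5 h, and Mybpc2, a myosin-binding protein of fast muscle, was below 1 FPKM at 6-8 h and at 4.51, 3.74 and 1.59 FPKM at 3, 4 and 5 h. Their changes were -1.94 ± 0.27, -1.58 ± 0.27, -1.85 ± 0.18 and -1.49 ± 0.30, and all were separate between windows. The levels of Bfsp2 and Mybpc2 were below 10 FPKM throughout these 6 libraries. Bfsp2 stood at 10.2 FPKM in the untreated spleen and Mybpc2 at 0.339 FPKM, so the 3-5 h levels lay below the untreated one for Bfsp2 and above it for Mybpc2.

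Signalling lists gave mixed or no changes. Their counts stand beside 8.84% of all tested genes higher and 5.36% lower. Of 20 NF-kB targets 4 were lower (Cd40, Nfkbie, Birc3 and Nfkb2) and Il1b was higher, with a median of -0.44; at 7-8 h alone 3 were lower. Without the 8 h library none was lower and the median was -0.18, without 3 h 1 was lower, and without 4 h or 7 h 2 were. Nfkbie, an inhibitor of NF-kB, stood at 34.9, 34.3 and 28.1 FPKM at 6, 7 and 8 h, against 52.8, 54.01 and 50.00 FPKM at 3, 4 and 5 h (-0.68 ± 0.17, adjusted p = 0.0105). Cd40, a costimulatory receptor of B cells and dendritic cells, stood at 15.7, 15.4 and 12.2 FPKM at 6, 7 and 8 h, against 42.8, 31.9 and 18.9 FPKM at 3, 4 and 5 h (-0.99 ± 0.32, adjusted p = 0.0366; 0.0615 at 7-8 h alone). Of 24 interferon-stimulated genes only Oasl2 was higher (0.89 ± 0.27), and it did not pass at 7-8 h alone (adjusted p = 0.0636). Isg15 stood at 198, 170.3 and 212 FPKM at 6, 7 and 8 h, against 134, 263 and 124 FPKM at 3, 4 and 5 h and overlapped. Of 16 glucocorticoid response genes Lcn2 and Mt1, named above, were higher, while Tsc22d3 (GILZ), a classic glucocorticoid-raised gene, stood at 101, 98.1 and 84.6 FPKM at 6, 7 and 8 h, against 102, 126 and 98.02 FPKM at 3, 4 and 5 h and did not pass. Of 18 AP-1 and immediate early genes Nr4a3 was higher (1.04 ± 0.29) and Egr3 lower (-1.21 ± 0.38). Nr4a3 overlapped between windows, with 10.6 FPKM at 8 h against 14.4 FPKM at 5 h, and did not pass at 7-8 h alone (adjusted p = 0.0854). Of 17 Bcl2 family members and caspases 1 was higher, Casp9 (0.64 ± 0.14), and 1 was lower. Bag3 was the heat shock gene that rose, of 13 (0.77 ± 0.18). No gene passed among 25 proteasome subunits, 23 oxidative phosphorylation subunits, 15 cholesterol synthesis genes and 15 circadian clock genes. Unadjusted p was below 0.05 for 3472 of all tested genes, and the medians of the proteasome, oxidative phosphorylation, clock, AP-1, glucocorticoid and NK lists change sign with scaling. Erythroid genes differed widely between neighbouring libraries, summing to 68640 FPKM at 4 h and 11060 FPKM at 5 h. Of 18 only Epor, the erythropoietin receptor, passed (0.62 ± 0.20, adjusted p = 0.109 at 7-8 h alone). Without the 5 h library 5 were lower and none higher (median -0.73), and without 4 h 1 was higher and none lower (median 0.27).

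Smaller groups added single genes, whose calls changed with single libraries. Since 8.84% of all tested genes were higher and 5.36% lower, such small counts stand for no group. Of 16 complement and coagulation genes Serpina3n, an acute-phase protease inhibitor, was higher (126, 111 and 154 FPKM at 6, 7 and 8 h, against 43.1, 45.1 and 74.2 FPKM at 3, 4 and 5 h, 1.28 ± 0.41), as was Thbd, thrombomodulin (0.87 ± 0.25). Of 16 glycolysis and hypoxia genes Egln3, an oxygen sensor, was higher (0.53 ± 0.17) and Ankrd37 lower (-1.42 ± 0.41). Of 9 megakaryocyte and platelet markers Vwf, von Willebrand factor, and F2rl2 were higher (0.60 and 0.49). Pdgfra and Pdgfrb, the growth factor receptors of stromal cells, were higher among the stromal markers (0.86 and 0.82). Cdh17 was the higher of 4 intestinal epithelium markers (0.68 ± 0.22), and none of 4 adipocyte markers passed.

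The thymus, the other lymphoid organ of the series, was compared over the same hours. There 1824 of 11358 genes changed between 6-8 h and 3-5 h (16.1%), 1051 of them higher and 773 lower. The change in spleen differed from that in thymus for 365 (3.21%), 185 of them higher in spleen and 180 lower. Neutrophil markers rose in both, with 10 of 15 called in spleen and 12 of 15 in thymus, and the change differed between the organs for 3 of them (Mmp8, Mmp9 and Il1r2). Mmp8 changed more in spleen, with 4.74, 4.596 and 7.77 FPKM at 6, 7 and 8 h in thymus, against 0.487, 1.86 and 1.87 FPKM at 3, 4 and 5 h there. The difference between organs was 2.29 ± 0.40 (adjusted p = 0.00325), and for Il1r2 it was 1.96 ± 0.45 (adjusted p = 0.0209). For S100a8 and S100a9 it did not pass (adjusted p = 0.175 and 0.35). Padi4, chosen after its values were seen, rose in spleen and stood at 3.34, 2.405 and 4.08 FPKM at 6, 7 and 8 h in thymus, against 3.21, 3.203 and 4.04 FPKM at 3, 4 and 5 h there (difference 2.16 ± 0.26, adjusted p = 1.70e-04).

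Some B cell genes separated the organs in the other direction. Of the 16 markers tested in both organs the change differed for 5, against 3.21% of all genes tested in both. Pax5 and Cd22 were too low in thymus to be tested. Where thymus levels were only a few FPKM, a fall there could hardly show, so such a difference mostly repeats the spleen change. Cxcr5 changed by -1.92 ± 0.24 in spleen and -0.29 ± 0.24 in thymus (difference -1.63 ± 0.34, adjusted p = 0.012). In thymus Cxcr5 stood at 2.52, 2.86 and 2.56 FPKM at 6, 7 and 8 h, against 3.12, 3.69 and 3.55 FPKM at 3, 4 and 5 h. Plk2 fell in spleen and stood at 66.2, 81.8 and 104 FPKM at 6, 7 and 8 h in thymus, against 67.4, 62.9 and 60.2 FPKM at 3, 4 and 5 h there. Its difference was -1.35 ± 0.32 (adjusted p = 0.0228), while for Bbc3 and Pidd1 no difference passed (adjusted p = 0.702 and 0.865). Cell cycle genes were called in thymus, with 27 of 29 S phase genes and 10 of 29 G2 and M phase genes lower there, but the difference from spleen passed for 5 S phase genes and no G2 and M phase gene. Of 24 interferon-stimulated genes 13 were higher in thymus, and the difference from spleen passed for none. Among all 11358 genes of the thymus test, 1051 were higher and 773 lower.

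**Figure D5:**
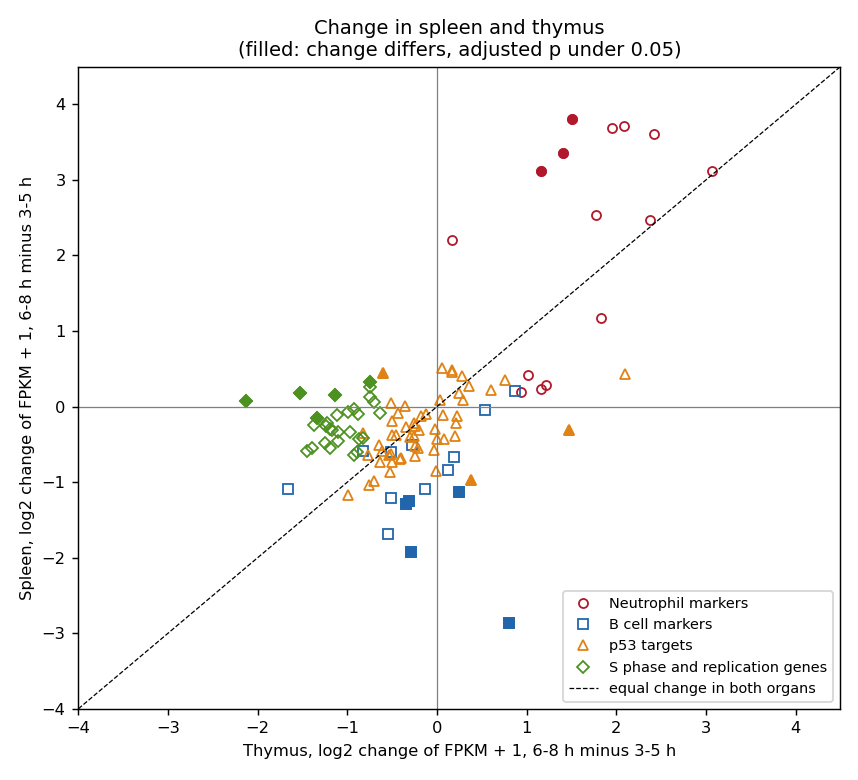
Log2 change of FPKM + 1 between 6-8 h and 3-5 h in spleen (vertical axis) against thymus (horizontal axis) for neutrophil markers (circles), B cell markers (squares), p53 targets (triangles) and S phase genes (diamonds). Filled symbols mark genes whose change differed between the organs, and the dashed line marks equal change. Mmp8 lies at 3.80 in spleen and 1.51 in thymus, and Fcer2a at -2.86 in spleen and 0.81 in thymus.

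The pancreatic genes of the 6 h library were called by the test, although their summed level at 7 and 8 h was far below that at 6 h. Of 23 acinar genes 20 were higher at 6-8 h, with a median of 4.996, and 15 at 7-8 h, with a median of 1.73; without the 3 h or the 4 h library 2 were called. Cela2a, an elastase of pancreatic juice, stood at 16400, 46.3 and 0 FPKM at 6, 7 and 8 h, against 0, 0 and 0 FPKM at 3, 4 and 5 h. Ctrb1, chymotrypsinogen, stood at 14230, 35.9 and 0 FPKM at 6, 7 and 8 h, against 0, 0 and 0 FPKM at 3, 4 and 5 h. At 7 h a median acinar gene held 0.2728% of its 6 h level. For 9 of the 23 genes all later libraries, 8 h included, lay above all earlier ones (19% of all tested genes did), and all 9 were called. At 7-8 h alone the medians were 2.57 for neutrophil markers and -1.19 for B cell markers. Lists with small medians moved more: the S phase median was -0.08, and those of G2 and M phase genes (0.10) and erythroid genes (0.04) changed sign.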

How the data were processed

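Poly(A)-selected, non-directional libraries were made from about 50 mg of each organ, per the labels' protocols. The deposited values are FPKM per gene, made by the authors; TopHat, TopHat2 2.1.0, Cufflinks 2.1.1 and mm10 are named in the submitters' processing notes. Because libraries were non-directional, reads of a gene and an antisense neighbour cannot be told apart.

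Genes with a mean of at least 1 FPKM over the 6 spleen libraries were tested after adding 1 to FPKM and taking log2; the fit was limma's (version 3.58.1, R 4.3.3; trended prior, 40 tissue libraries, a mean for each window of each organ, 20 residual degrees of freedom). P-values are two-sided and Benjamini-Hochberg adjusted over all tested genes, with a threshold of 0.05. The 7-8 h test leaves out the 6 h spleen library. The thymus test uses the same fit and the contrast of the 2 organs. Scripts were tested on simulated data.

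Named genes were called, had no overlap between windows, passed at 7-8 h, were on no pancreatic list and were not listed near 0 in part of a window (the 12 highest and 12 lowest); up to 3 called members per list and members defining a list were added. Further genes, said to be so in the text or given as other called list members, were chosen after their values were seen. The 40 gene lists and the comparison itself were chosen with earlier results of these data known. Gene positions were read from a RefSeq gene table of GRCm38.p6, in which 11239 of the 11754 tested symbols matched. Promoters were read from a separate RefSeq promoter table, in which 126 of the 159 named genes had an entry. Results for some genes are not reported here.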

Additional observations from a re-analysis of the deposited data

Results flagged for a closer look

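The change between 6-8 h and 3-5 h was set against the same hours in thymus by a test of the difference itself, spleen minus thymus, within the limma fit. It passed for the genes named here, and each value here is that difference on the log2 scale. No cause was tested.

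The genes are given by the sign of the difference. Among positive differences it was 2.29 for Mmp8, 1.52 for Ccr1, 1.96 for Il1r2 and 1.96 for Mmp9. It was 1.94 for C5ar1, 1.90 for Hdc, 2.07 for Chil1, 1.89 for Asprv1 and 2.29 for H2-Q10. For Tnfsf14 it was 2.02, for Pi16 2.19, for Emilin2 1.31 and for Padi4 2.16. The oxidative stress gene Slc7a11 and the heme recycling gene Blvra differed by 1.41 and 1.00.

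Among negative differences, Fcer2a had the lowest value, -3.67, with 2.03, 1.14 and 1.34 FPKM at 6, 7 and 8 h in thymus, against 0, 1.84 and 0 FPKM at 3, 4 and 5 h there. Fam129c, Cxcr5, Ebf1 and Spib differed by -1.47, -1.63, -1.38 and -0.94. The antigen presentation genes H2-DMb2 and Ciita differed by -1.50 and -1.16.

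For Bfsp2 the difference was -1.60, for Mdn1 -1.73, for Mybpc2 -1.61 and for Utp20 -1.51. For the p53 target Plk2 it was -1.35. The NF-kB targets Nfkbie, Nfkb2 and Birc3 differed by -1.03, -1.07 and -1.05, and Kynu and Ift140 by -1.48 and -1.09. Pi16, Emilin2, Kynu and Ift140 are on no list and were chosen after their values were seen.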

How the results depend on the processing

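The direction of every named gene held under each alternative, except that Fth1 (-0.044), Lyz2 (-0.46) and Ftl1 (-0.16) turned after quantile normalization; the cause was not tested. Of 159 named genes 48 stayed called under every alternative that tested them, including S100a8, Mmp8, Cxcr2, Fcer2a, Pax5 and Ms4a1. The other 111 lost the call somewhere, 108 of them where a change beyond 1.5-fold was required. Genes left out of an alternative, such as those under a mean of 5 FPKM, were not counted there, also for direction. The count of 1669 genes became 893 with only the compared libraries in the fit, 729 with only spleen libraries by window, and 81 beyond 1.5-fold; leaving out single libraries gave 564 to 2541. At 7-8 h the count of 1196 became 784 with a pseudocount of 0.1, 247 and 232 in those smaller fits, and 75 beyond 1.5-fold, with 262 to 2058 when single libraries were left out. The spleen-thymus count of 365 became 165 with a pseudocount of 0.1, 229 at a mean of at least 5 FPKM, 216 with only spleen and thymus libraries, and 6 beyond 1.5-fold, with 101 to 583 when single libraries were left out. The smaller fits have fewer samples; for the others the cause was not tested. Leaving out genes listed near 0 was an alternative chosen after seeing the data. Spleen windows share no replicate numbers; spleen and thymus libraries share hours, so the hour was added as a replicate block, an alternative chosen after seeing the data. With the block and only the 12 libraries compared, 77 genes differed between the organs, 60 of them among the 365, against 344 without the block. Deviations of same-hour libraries correlated at -0.08 to 0.33, and 2 of 6 spleen libraries correlated best with their own hour, so the hours are not shown to pair the libraries. Depth is unknown, so low FPKM values carry an unknown counting error.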

Other observations

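Genes that no list held also differed between spleen and thymus, and were chosen after their values were seen. Il2ra, the high-affinity chain of the interleukin-2 receptor, differed by -2.22 ± 0.29 (spleen minus thymus, log2 scale, adjusted p = 2.62e-04). It stood at 3.89, 3.702 and 3.39 FPKM at 6, 7 and 8 h, against 4.498, 5.68 and 5.71 FPKM at 3, 4 and 5 h in spleen. In thymus it stood at 25.6, 40.5 and 59.3 FPKM at 6, 7 and 8 h, against 8.24, 10.02 and 14.7 FPKM at 3, 4 and 5 h. In the other direction Arid3a, a transcription factor known from B cells, differed by 2.45 ± 0.50 (adjusted p = 0.0114). It stood at 4.36, 6.39 and 5.83 FPKM at 6, 7 and 8 h, against 1.21, 1.68 and 3.18 FPKM at 3, 4 and 5 h in spleen. In thymus it stood at 0.328, 0.0658 and 0.122 FPKM at 6, 7 and 8 h, against 1.75, 1.73 and 2.13 FPKM at 3, 4 and 5 h.

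More genes outside the lists were called in spleen with no overlap between windows, again chosen after their values were seen. Gpnmb, a glycoprotein of phagocytic macrophages, stood at 15.9, 21.6 and 25.1 FPKM at 6, 7 and 8 h, against 1.66, 2.16 and 4.55 FPKM at 3, 4 and 5 h (2.58 ± 0.30). Steap4, a metalloreductase raised in inflammation, stood at 12.7, 13.00 and 24.6 FPKM at 6, 7 and 8 h, against 2.62, 2.81 and 4.21 FPKM at 3, 4 and 5 h (2.03 ± 0.32). Kynu, kynureninase, which acts in tryptophan breakdown, stood at 6.66, 4.59 and 3.81 FPKM at 6, 7 and 8 h, against 17.6, 17.1 and 10.5 FPKM at 3, 4 and 5 h (-1.41 ± 0.23), and Map4k1, a kinase of lymphocyte signalling, at 25.7, 25.4 and 19.9 FPKM at 6, 7 and 8 h, against 66.7, 64.4 and 48.3 FPKM at 3, 4 and 5 h (-1.30 ± 0.19). Spc25, a kinetochore subunit, stood at 12.2, 9.64 and 8.58 FPKM at 6, 7 and 8 h, against 26.4, 30.8 and 21.7 FPKM at 3, 4 and 5 h (-1.29 ± 0.23), although no member of the G2 and M phase list passed. These values are given as a description.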
